A study of Mus musculus with 2 samples.

Results

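Among the barcodes of a hepatocyte preparation made 48 hours after partial hepatectomy (PHx48h), 60 carried the highest share of mRNA for genes of DNA replication, and they are described here as the S-phase barcodes. They were chosen from the 821 of 1586 PHx48h barcodes in which mitochondrial (mt-) transcripts made up at most 30% of the UMIs (unique molecular identifiers, 1 per captured mRNA molecule). The choice used the summed UMIs of 17 genes (Cdt1, Hells, Ung, Asf1b, Cenpq, Mcm2 to Mcm7, Gins2, Dtl, Cdc6, Uhrf1, Rrm2 and Tyms) as a share of each barcode's non-mitochondrial UMIs, and the 761 eligible barcodes below the 60 highest are called the other barcodes. The levels of these 17 genes are therefore a description of how the barcodes were picked, and every other gene is given as a description too, since it was counted in the same barcodes.

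The series held 60788 barcodes in 2 scRNA-Seq libraries (10x Genomics v2 chemistry) of collagenase-isolated liver cells labelled as hepatocytes, 59202 from undamaged liver (0 h) and 1586 from liver 48 h after PHx. The mice were C57BL/6 in the labels, which give 10 to 12 weeks of age at surgery, and on a normal diet, with no transgene or drug named, and the only labelled difference between the groups was the hepatectomy. The methods describe male mice of the J substrain and a slightly younger age at surgery. Each library came from a single preparation, so no difference here has a replicate check and no p-value is given. The intervals in brackets are exact 95% Poisson or binomial intervals and cover counting error only. The median was 1436 UMIs a barcode at 0 h and 6838.5 at PHx48h, where no barcode had fewer than 4578. Of the PHx48h barcode sequences, 148 (9.33%) also occurred in the undamaged library, among them 2 of the 60 S-phase barcodes and 70 of the 761 other barcodes.

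Hepatocytes of the adult liver are mostly quiescent, and after loss of liver mass they re-enter the cell cycle and pass through S phase largely in step, with endothelial and stellate cells generally following later. At the G1/S border cyclin D and cyclin E kinases release E2F transcription factors from the retinoblastoma family, and E2F then switches on the genes that license origins, build forks, supply deoxynucleotides and pack new DNA. Cdt1 and Cdc6 load the Mcm2 to Mcm7 helicase on origins, Gins2 joins it to form the active helicase, and Dtl directs the destruction of Cdt1 once forks run. Rrm2 and Tyms make deoxynucleotides, Ung removes uracil from DNA, Asf1b hands histones to new DNA, Hells and Uhrf1 act in the maintenance of DNA methylation, and Cenpq is a protein of the inner kinetochore.

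The 17 genes made up between 0.128% and 0.307% of the non-mitochondrial UMIs in the 60 barcodes, with a median of 0.165%, against a median of 0.0346% in the other barcodes. In molecules this was 6 to 48 UMIs a barcode (median 12.5) against a median of 2, so the ranking rested on few molecules. The UMIs were spread over 3 to 15 of the 17 genes in each S-phase barcode, with a median of 8. At the edge of the selection, the barcodes ranked 58 to 60 had 0.130%, 0.129% and 0.128%, and those ranked 61 to 63 had 0.127% each, so the last barcodes inside and the first outside hardly differed.

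**Figure D1:**
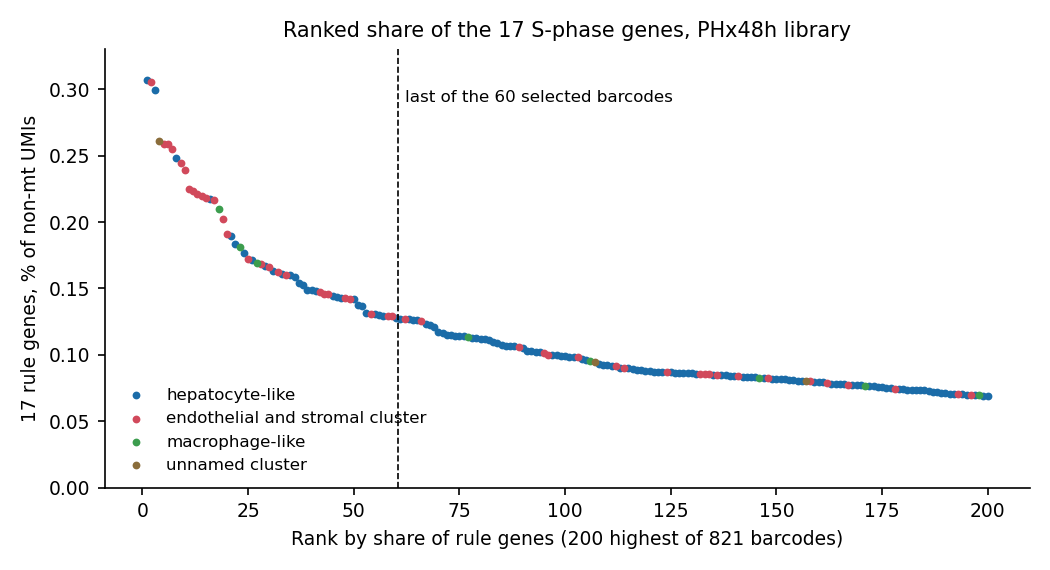
Share of the 17 S-phase genes (y axis, percent of non-mitochondrial UMIs) against rank (x axis) for the 200 highest of the 821 eligible PHx48h barcodes, 1 point a barcode, coloured by cluster class. The curve has no step at the dashed line after rank 60, and barcodes of the endothelial and stromal cluster make up 14 of the 20 highest.

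All 17 genes had higher levels in the S-phase barcodes, which the choice itself brings about. Levels are given as CPM, the UMIs of a gene per 1000000 non-mitochondrial UMIs, summed over the barcodes of a group. Mcm6 stood at 190 CPM against 32.3 in the other barcodes, Mcm3 at 168 against 17.8, Mcm5 at 158 against 29.4 and Mcm7 at 142 against 27.5. At least 1 UMI of an Mcm2 to Mcm7 gene was found in 58 of the 60. Of the 5 genes that give the group its label, Hells stood at 150 CPM against 22.2, Cdt1 at 87.1 against 12.3, Cenpq at 63.3 against 16.2, Asf1b at 53.4 against 7.51 and Ung at 31.7 against 9.90, and 53 of the 60 barcodes held a UMI of at least 1 of them. Rrm2 was the most abundant at 226 CPM against 78.2, and Mcm2 had 87.1 against 15.7, Mcm4 81.1 against 11.8, Gins2 67.3 against 22.9, Dtl 53.4 against 5.29 and Cdc6 47.5 against 6.66. Uhrf1 was higher as well. The smallest ratio was that of Tyms, 1.51 (1.09 to 2.04).

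A feature outside the ranking, present in part of these genes, can be read from their promoters. E2F-type motifs were searched on both strands, as the letters TTTCCCGC, TTTGGCGC, TTTCGCGC and TTTGCCGC, in the 300 bases from 250 before to 50 after each RefSeq start (GRCm38.p6). A motif was present in 8 of the 15 rule genes that had an entry (53.3%), against 626 of 27025 promoters (2.32%) overall. The 8 were Cdt1, Hells, Cdc6, Dtl, Mcm3, Mcm5, Mcm6 and Mcm7. Of the S-phase genes kept out of the ranking 16 of 72 held one (22.2%), and of the mitosis genes 1 of 26 (3.85%). The mitosis genes more often held the letters TTTGAA, the core of the cell cycle homology region, on either strand: 19 of 26 (73.1%), against 2 of 15 rule genes (13.3%) and 18.1% of all promoters. A match is a string of letters in this window and not a measured binding site.

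The promoters of 4 of these genes are printed, Cdt1 and Hells as the label genes with a match and Mcm5 and Mcm6 as helicase genes in which matches overlap. They lie at chr8:122567765-122568064 on the plus strand (Cdt1), chr19:38930740-38931039 on the plus strand (Hells), chr8:75109259-75109558 on the plus strand (Mcm5) and chr1:128359656-128359955 on the minus strand (Mcm6), all GRCm38.p6. Each is written 5′ to 3′ along the gene, with the E2F-type letters in capitals. In Mcm5 and Mcm6 a match on the opposite strand overlaps, so the capitals run longer than 1 motif.
Cdt1: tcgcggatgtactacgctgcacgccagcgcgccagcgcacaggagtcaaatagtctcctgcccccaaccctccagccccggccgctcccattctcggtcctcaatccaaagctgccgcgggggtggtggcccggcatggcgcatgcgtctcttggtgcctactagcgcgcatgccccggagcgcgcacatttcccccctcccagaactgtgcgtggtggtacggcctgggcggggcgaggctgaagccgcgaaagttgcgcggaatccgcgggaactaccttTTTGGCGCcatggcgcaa
Hells: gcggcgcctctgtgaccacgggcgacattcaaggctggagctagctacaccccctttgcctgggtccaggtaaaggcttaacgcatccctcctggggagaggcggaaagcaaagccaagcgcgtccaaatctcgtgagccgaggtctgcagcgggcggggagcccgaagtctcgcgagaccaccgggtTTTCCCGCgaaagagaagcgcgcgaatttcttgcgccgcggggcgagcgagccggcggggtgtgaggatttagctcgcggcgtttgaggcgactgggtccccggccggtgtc
Mcm5: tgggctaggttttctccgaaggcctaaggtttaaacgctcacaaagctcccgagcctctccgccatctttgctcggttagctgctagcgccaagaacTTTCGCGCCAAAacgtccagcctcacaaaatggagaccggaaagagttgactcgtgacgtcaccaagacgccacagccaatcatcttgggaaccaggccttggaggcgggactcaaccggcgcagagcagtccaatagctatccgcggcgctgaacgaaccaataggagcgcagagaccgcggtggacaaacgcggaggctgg
Mcm6: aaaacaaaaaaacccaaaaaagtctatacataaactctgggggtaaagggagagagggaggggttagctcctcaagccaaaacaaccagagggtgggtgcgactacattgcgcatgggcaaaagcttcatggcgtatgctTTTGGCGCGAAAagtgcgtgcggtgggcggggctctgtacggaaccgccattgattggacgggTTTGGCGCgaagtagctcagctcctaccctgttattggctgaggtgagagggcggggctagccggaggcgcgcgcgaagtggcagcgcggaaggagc

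The first question was which cells the S-phase barcodes were. The 821 barcodes were clustered without the 156 genes of the cell cycle lists, and clusters were named from marker lists. Cell cycle genes outside those lists were not removed. Of the 60, 29 (48.3%, 35.2 to 61.6) fell in hepatocyte-like clusters, 27 (45.0%, 32.1 to 58.4) in a single cluster that met both the endothelial and the stromal markers, 3 (1.04% to 13.9%) in the macrophage-like cluster and 1 in a cluster that stayed unnamed. Of the 761 other barcodes, 661 (86.9%) were hepatocyte-like and 68 (8.94%) lay in the endothelial and stromal cluster. S-phase barcodes were thus 28.4% (19.6 to 38.6) of the endothelial and stromal cluster and 4.20% (2.83 to 5.98) of the hepatocyte-like clusters.

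The non-hepatocyte share was greatest at the top of the ranking. Among the 20 highest barcodes 4 were hepatocyte-like and 14 lay in the endothelial and stromal cluster. Among ranks 21 to 40 the counts were 13 and 5, among ranks 41 to 60 they were 12 and 8, and among the next 60 barcodes below the selection they were 49 and 8. The label of the preparation, hepatocytes, therefore matched the cluster class of fewer S-phase barcodes than of barcodes overall.

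Marker UMIs were also counted in the single barcodes, with a limit of 10 UMIs set after the data were seen. The lists were those that had named the clusters, so this is no separate check of the names. The 15 endothelial markers (among them Kdr, Stab2, Clec4g, Oit3 and Dnase1l3 of the liver sinusoid) summed to 10 UMIs or more in 24 of the 60 S-phase barcodes (40.0%) and in 42 of the 761 others (5.52%). The 14 stromal markers (among them Dcn, Reln, Lrat and the collagens of stellate cells and fibroblasts) did so in 20 (33.3%) against 52 (6.83%). The 12 macrophage markers did so in 8 against 27. None of the 4 lists used for this count, the T and NK cell list included, reached 10 UMIs in 29 of the S-phase barcodes (48.3%) and in 680 of the others (89.4%). An endothelial sum close to the limit of 10, between 5 and 14 UMIs, was found in 4 S-phase barcodes and in 19 of the others.

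Many of the non-hepatocyte barcodes carried markers of more than 1 cell type. In the 27 barcodes of the endothelial and stromal cluster the endothelial sum ran from 4 to 88 UMIs with a median of 52, and the stromal sum from 0 to 246 with a median of 25. Both sums reached 10 UMIs in 15 of the 27, and in 5 of these the macrophage sum did too. Endothelial markers alone did so in 8 and stromal markers alone in 4. The other 68 barcodes of the cluster held 28 with both, 12 endothelial alone, 21 stromal alone and 7 with neither. Scrublet, a caller that scores simulated doublets, marked 1 of the 60 S-phase barcodes and 8 of the 761 others. Whether the mixed barcodes held 2 cells was not tested.

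**Figure D2:**
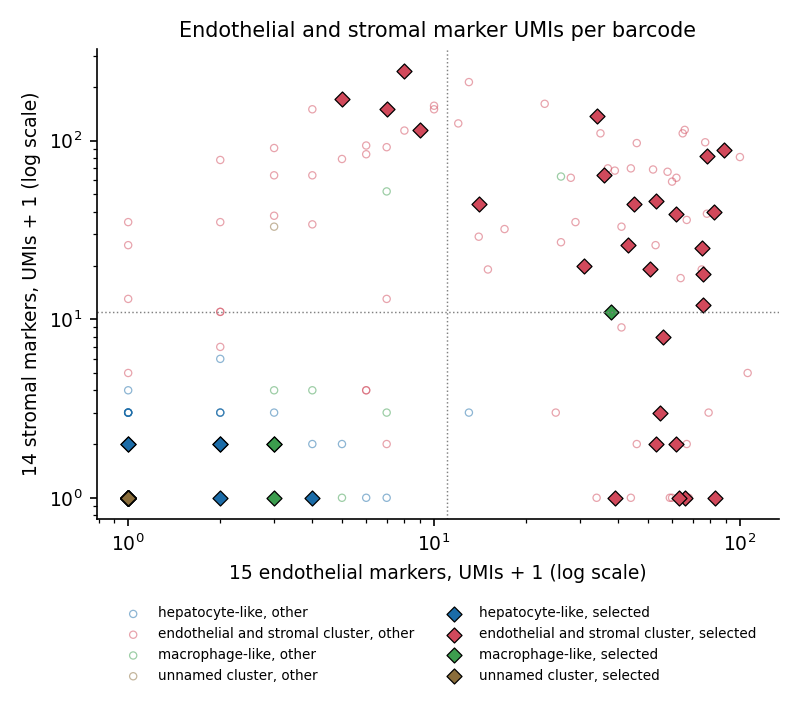
Summed UMIs plus 1 of the 15 endothelial markers (x axis) and 14 stromal markers (y axis), both on log scales, for the 60 selected barcodes (filled diamonds) and the 761 others (open circles), coloured by cluster class. Dotted lines mark 10 UMIs: 15 selected barcodes of the endothelial and stromal cluster lie above both, 8 above the endothelial line alone and 4 above the stromal line alone.

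Divided once more, a step chosen after the data were seen, the endothelial and stromal cluster gave an endothelial-like part of 29 barcodes with 13 S-phase barcodes, a stromal-like part of 23 with 1, and a part of 43 with 13 that still met both lists. The split depended on the settings. At resolution 1.5 without this step 22 S-phase barcodes lay in a cluster of both lists, 5 in a stromal-like one and none in an endothelial-like one, and at resolution 0.5 a single cluster of both lists held 30.

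Hepatocyte mRNA was present in every class. Alb, the albumin gene, stood at 22494 CPM in the hepatocyte-like S-phase barcodes and at 8792 CPM in those of the endothelial and stromal cluster, and each of the 60 held at least 24 Alb UMIs. The 12 hepatocyte markers summed to 42181 CPM in the 60 barcodes against 68331 in the others, a ratio of 0.617 (0.609 to 0.626), and 9 of the 60 lay above the median of the other barcodes. A hepatocyte-like name therefore says that the barcode lacked other markers as much as that it held hepatocyte ones.

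Mitochondrial content moved with the class. The median was 4.19% mt- UMIs in the S-phase barcodes and 0.677% in the others, and 18 of 60 against 504 of 761 lay below 2%. Of the 18, 17 were hepatocyte-like and none lay in the endothelial and stromal cluster, whose 27 S-phase barcodes began at 2.63%. Below 2% mt- UMIs the 18 S-phase barcodes held no endothelial UMI, which allows up to 22.1 CPM, against 44.7 CPM in the others, and 1 stromal UMI. The endothelial and stromal excess therefore came from barcodes above 2%. Depth differed less, with a median of 7123 UMIs in the S-phase barcodes (4648 to 32500) and 5560 in the others (4578 to 110169). The part of mitochondrial content in the results below was not tested.

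Over all 60 barcodes, the genes with the highest ratios were mostly endothelial ones. Of 2999 genes outside the ranking with at least 50 CPM in either group, 458 (15.3%) were at least 2-fold higher in the S-phase barcodes and 25 (0.834%) at least 2-fold lower, on a log2 scale with 5 CPM added to both. With composition-adjusted scaling (TMM, trimmed mean of M-values) over all genes, which shifted every log2 ratio by -0.52, the counts were 211 higher and 294 lower, and with TMM over genes at 50 CPM or more, a shift of -0.17, they were 361 and 52. Without this scaling, 720 of the 2999 genes reached 50 CPM through the S-phase barcodes alone and so had to be higher. Of the 2279 genes at 50 CPM or more in the other barcodes, 85 (3.73%) were 2-fold higher and 25 (1.10%) lower. The endothelial markers stood at 2717 CPM against 381, a ratio of 7.12 (6.65 to 7.62), the stromal ones at 2764 against 620, a ratio of 4.46 (4.19 to 4.75), and the macrophage ones at 924 against 340, a ratio of 2.72 (2.45 to 3.01). When the 5 label genes alone set the ranking, the endothelial ratio was 4.14 and the stromal ratio 1.40.

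Among the 15 highest ratios were Kdr, the VEGF receptor of endothelial cells, at 317 CPM against 42.4, Dnase1l3 at 370 against 47.6, Clec4g at 287 against 38.6, Egfl7 at 299 against 41.7, Eng at 279 against 39.1, and Flt4 and Adgrl4 at 98.9 CPM each against 10.2 and 9.22. The water channel gene Aqp1 stood at 728 CPM against 95.5 and Bmp2, a ligand by which sinusoidal endothelium controls hepcidin in hepatocytes, at 184 against 20.3. Ckap4, Gatm, Ctla2a and Akap12 were also in this group, with log2 ratios of 3.20, 2.89, 2.87 and 2.78. Fam111a, which encodes a protease that acts at replication forks, stood at 103 CPM against 10.6 and had UMIs in 27 of the 60. Of the genes given here in CPM, only Aqp1 reached 50 CPM in the other barcodes. The rest passed the limit through the S-phase barcodes alone. The highest ratio of all, that of Ifng at log2 3.45, rested on 26 UMIs in a single barcode, against 1 UMI in the others.

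That barcode, ranked 24, was placed with the hepatocyte-like clusters but held lymphocyte mRNA. Of its 26692 UMIs, 26 were Ifng (interferon gamma), 17 Nkg7, 11 Cd3d, 5 Cd3g, 27 Rac2 and 36 Cd52, against 76 of Alb, while Gzma and Cd8a had none. It was the only S-phase barcode with a T or NK cell marker. Its 37 marker UMIs made up the whole T and NK cell sum of the 60, and it is left out of the hepatocyte-like comparison below. With it the 15 highest ratios among hepatocyte-like barcodes were lymphocyte or leukocyte genes from this barcode, led by Ifng, Tmsb4x and Rac2, and 112 genes (4.28%) were 2-fold higher and 14 (0.535%) lower of 2618.

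The lowest ratios over all 60 belonged mostly to hepatocyte genes. Spp1, the osteopontin gene, stood at 11.9 CPM against 133, but its UMIs in the other barcodes lay in 65 of them. Sds, a periportal serine dehydratase, stood at 89.0 against 255, Gsta2 at 53.4 against 136, Afm at 53.4 against 118 and Mup17, a major urinary protein whose many copies share sequence, at 1047 against 2331. Cdkn3, a phosphatase of the later cell cycle, stood at 23.7 CPM against 70.7. The 20 plasma protein genes summed to 101960 CPM against 161607, a ratio of 0.631, and the 18 acute phase genes to 27218 against 45602, a ratio of 0.597.

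The second question was which cell cycle genes went with the ranking. A set of 93 S-phase genes in 6 functional lists had been kept out of it. They summed to 8065 CPM in the S-phase barcodes and 3834 in the others, a ratio of 2.10 (2.03 to 2.18), which fell to 1.47 with TMM over all genes. Their share ran from 0.254% to 1.72% of a barcode's UMIs with a median of 0.721%, and 58 of the 60 lay above the median of the other barcodes (0.362%) and 46 above their 90th percentile (0.554%). The other barcodes ran from 0.103% to 1.63%, so the groups overlapped. Of the 37 held-out genes measured at 50 CPM or more, 26 were 2-fold higher, but 23 of the 37 reached 50 CPM through the S-phase barcodes alone and so had to be higher. Of the 14 at 50 CPM or more in the other barcodes 5 were 2-fold higher and none lower, where 85 of 2279 genes (3.73%) were higher and 25 (1.10%) lower. Against the next 60 barcodes in the ranking, 53 of the 60 lay above the median held-out share (0.471%).

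The 30 mitosis genes had a smaller ratio. They stood at 2228 CPM against 1406, a ratio of 1.59 (1.49 to 1.69; 1.11 with TMM over all genes), and 40 of the 60 lay above the median of the others. The 60 barcodes with the highest mitosis share, ranked separately, had 13 (21.7%) in common with the 60 S-phase barcodes, which were 60 of the 821 ranked, and 12 of these 13 lay in the endothelial and stromal cluster and 1 in the hepatocyte-like ones. Among the S-phase barcodes, those with more held-out mRNA tended to hold more mitosis mRNA. Spearman's rho between the held-out and the mitosis share was 0.65 over the 60, 0.53 over 28 hepatocyte-like ones and 0.48 over the 27 of the endothelial and stromal cluster. These points share a library and each pair of shares a denominator, so rho is a description.

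**Figure D3:**
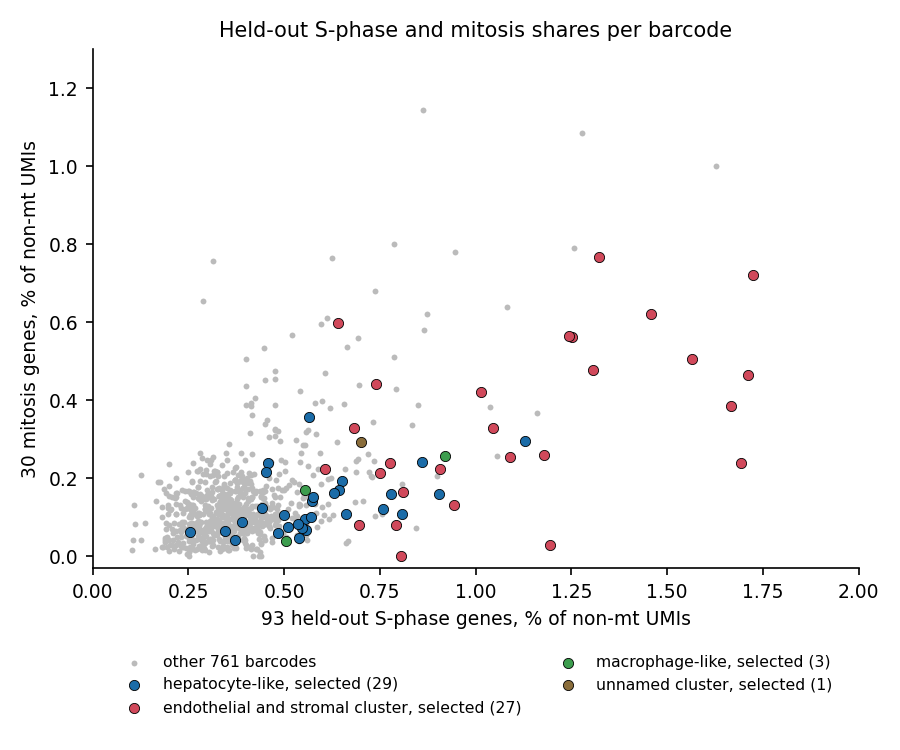
Share of the 93 held-out S-phase genes (x axis) and of the 30 mitosis genes (y axis), in percent of non-mitochondrial UMIs, 1 point a barcode. The selected barcodes are coloured by class and the 761 others are grey. Hepatocyte-like selected barcodes lie to the right of most others but low on the mitosis axis, where the 28 without other markers reach 0.356%, and those of the endothelial and stromal cluster reach 1.72% and 0.768%.

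Because classes differ in all their genes, the remaining comparisons were made within a class. The hepatocyte-like comparison set 28 S-phase barcodes against 658 others, all with fewer than 10 UMIs of endothelial, stromal, macrophage, and T and NK cell markers each, a limit chosen after the data were seen. In these 28 the endothelial, stromal and macrophage sums were 5, 5 and 4 UMIs in all. The barcodes came from different clusters: 8 and 12 of the 29 hepatocyte-like S-phase barcodes lay in clusters 1 and 4, which held 86 and 61 others, while clusters 0 and 3 held 158 and 239 of the others but 0 and 4 S-phase barcodes. Cluster 1 had a median of 18.2% mt- UMIs and cluster 4 of 0.285%.

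Within the hepatocyte-like barcodes the summed levels of all 6 held-out S-phase lists were higher in the S-phase barcodes, and that of mitosis genes was not. Of 2550 genes, 66 (2.59%) were 2-fold higher and 10 (0.392%) lower. With TMM over all genes, a shift of -0.26, these were 21 and 50, and with TMM over genes at 50 CPM or more, a shift of -0.13, they were 41 and 22. The held-out genes stood at 5902 CPM against 3608, a ratio of 1.64 (1.55 to 1.72; 1.37 with TMM over all genes), and 20 of the 34 measured were 2-fold higher, which were 20 of the 66 higher genes. Of the 34, 21 reached 50 CPM through the S-phase barcodes alone and so had to be higher. Of the 13 at 50 CPM or more in the other barcodes 3 were 2-fold higher and none lower, where 8 of 2197 genes (0.364%) were higher and 10 (0.455%) lower. The sums over whole lists below do not depend on this limit. The share per barcode ran from 0.254% to 0.904% with a median of 0.555%, against 0.105% to 0.793% with a median of 0.353% in the others. It was above the others' median in 26 of 28 barcodes and above their 90th percentile (0.490%) in 20, so the groups overlapped here too.

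The highest 3 ratios of the 2550 genes belonged to 2 cyclins and a histone chaperone. Ccne2 and Ccne1, the E cyclins that drive Cdk2 at the start of S phase, stood at 52.7 CPM against 6.06 and at 71.5 against 10.6, log2 ratios of 2.38 and 2.30. Their UMIs were spread over 10 and 12 of the 28 barcodes, with at most 3 and 4 in any of them. Chaf1a, the large subunit of the chromatin assembly factor that deposits histones behind the fork, stood at 67.8 CPM against 10.2 (log2 2.26). Tcf19, a cell cycle gene of the G1/S border, followed with 79.0 against 13.3 (log2 2.20). All 4 reached 50 CPM in the S-phase barcodes alone. In GRCm38 Ccne1 lies at chr7:38097984-38107534, Ccne2 at chr4:11191351-11204779, Chaf1a at chr17:56040439-56072289 and Tcf19 at chr17:35512734-35516824. Of the other highest genes, Smc3, Esco2, Isoc2a and Tssc4 were 4.31, 3.14, 3.42 and 3.25 times as high. Smc3 is a ring subunit of cohesin and Esco2 acetylates it during replication, when sister chromatids become joined.

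The 17 genes of G1/S control summed to 907 CPM against 370, a ratio of 2.45 (2.13 to 2.80). Of the 2 genes at 50 CPM in the other barcodes 1, Ccnd1, was 2-fold higher, where 0.364% of all such genes were. Ccnd1, the cyclin D that carries the mitogen signal in hepatocytes, had the most UMIs, 414 CPM against 171, a ratio of 2.43 (1.97 to 2.96), and was found in 22 of the 28, with 20 UMIs in the highest of them. Cdkn1a, the p21 inhibitor of cyclin kinases, stood at 113 against 70.1, a ratio of 1.61 (1.07 to 2.34). Cdk4 stood at 45.2 against 31.2 CPM and the inhibitor Cdkn1b at 11.3 against 10.5.

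The origin firing genes stood at 343 CPM against 151, a ratio of 2.27 (1.81 to 2.83). None of them reached 50 CPM in the other barcodes, and the genes named next passed through the S-phase barcodes alone. Orc6, a subunit of the origin recognition complex, stood at 60.2 against 15.8 CPM, Gmnn, the inhibitor that binds Cdt1 after firing, at 82.8 against 32.0, and Mcm10, which helps the helicase start, at 64.0 against 34.4. Gins4 and Gins1, the helicase partners of Gins2, were below 50 CPM in both groups, at 45.2 against 27.9 and 15.1 against 12.7 CPM, with intervals of the ratio that included 1.

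Fork synthesis genes stood at 749 CPM against 340, a ratio of 2.21 (1.89 to 2.56). Only Rfc2 reached 50 CPM in the other barcodes, and the genes named next passed through the S-phase barcodes alone. Rpa2, of the protein that coats single strands, stood at 86.6 CPM against 21.7, Rfc3, a subunit of the clamp loader, at 64.0 against 15.6, Pcna, the sliding clamp, at 109 against 43.2, Lig1, the ligase that joins Okazaki fragments, at 75.3 against 25.8, and Fen1, the nuclease that trims them, at 52.7 against 15.6. Rfc2 itself stood at 64.0 against 50.6, a ratio of 1.27 (0.726 to 2.07).

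Nucleotide supply moved less, at 1438 CPM against 1046, a ratio of 1.37 (1.24 to 1.52), and none of the 5 genes at 50 CPM in the other barcodes was past 2-fold. Below that level in the others was Rrm1, the large subunit of ribonucleotide reductase and the partner of Rrm2, at 109 CPM against 35.0 and a ratio of 3.12 (2.03 to 4.64). Dut stood at 94.1 against 53.1 and Nme1, the most abundant of the list, at 565 against 494.

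The chromatin assembly genes stood at 2078 CPM against 1581, a ratio of 1.31 (1.20 to 1.43; 1.10 with TMM over all genes). Of the 5 genes at 50 CPM in the other barcodes 2 were 2-fold higher, where 0.364% of all such genes were. Below that level in the others were, with Chaf1a, also Atad2 at 52.7 CPM against 14.1 and Slbp, which binds the stem loop of histone mRNA, at 86.6 against 27.0. H2afz, the histone variant with most UMIs in the list, did not follow, at 806 against 847, nor did Hmgb1 at 301 against 287. The checkpoint and repair genes, none of which reached 50 CPM in the other barcodes, had the largest ratio, 388 CPM against 120, or 3.23 (2.59 to 3.98). Clspn, the claspin mediator of the replication checkpoint, stood at 48.9 CPM against 4.10 on 13 UMIs in 9 barcodes, and Usp1 at 64.0 against 20.9.

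The mitosis genes, summed over the hepatocyte-like barcodes, stood at 1201 CPM against 1270, a ratio of 0.945 (0.842 to 1.06; 0.790 with TMM over all genes), and 13 of 28 barcodes lay above the median of the others. Of the 7 genes at 50 CPM in the other barcodes 1 was 2-fold lower and none higher, where 10 of 2197 genes (0.455%) were lower and 8 (0.364%) higher. Ccnb2, a B cyclin of mitotic entry, stood at 26.4 CPM against 64.1 (log2 -1.14), Cdca3 at 79.0 against 136, Ube2c, the ubiquitin enzyme of the anaphase complex, at 109 against 150, and Plk1 had no UMI in the 28 barcodes (allowing up to 11.3 CPM) against 17.4 CPM. In the other direction Cks2 stood at 233 against 137, a ratio of 1.70 (1.29 to 2.21), and Pbk at 79.0 against 39.3, a ratio of 2.01 (1.22 to 3.16). Cdkn3, which is most abundant late in the cycle, was among the lowest genes at 30.1 against 76.2 CPM. The inner kinetochore genes, the class of Cenpq, stood at 422 CPM against 371, a ratio of 1.13 (0.929 to 1.37) that turned to 0.949 with TMM over all genes.

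**Figure D4:**
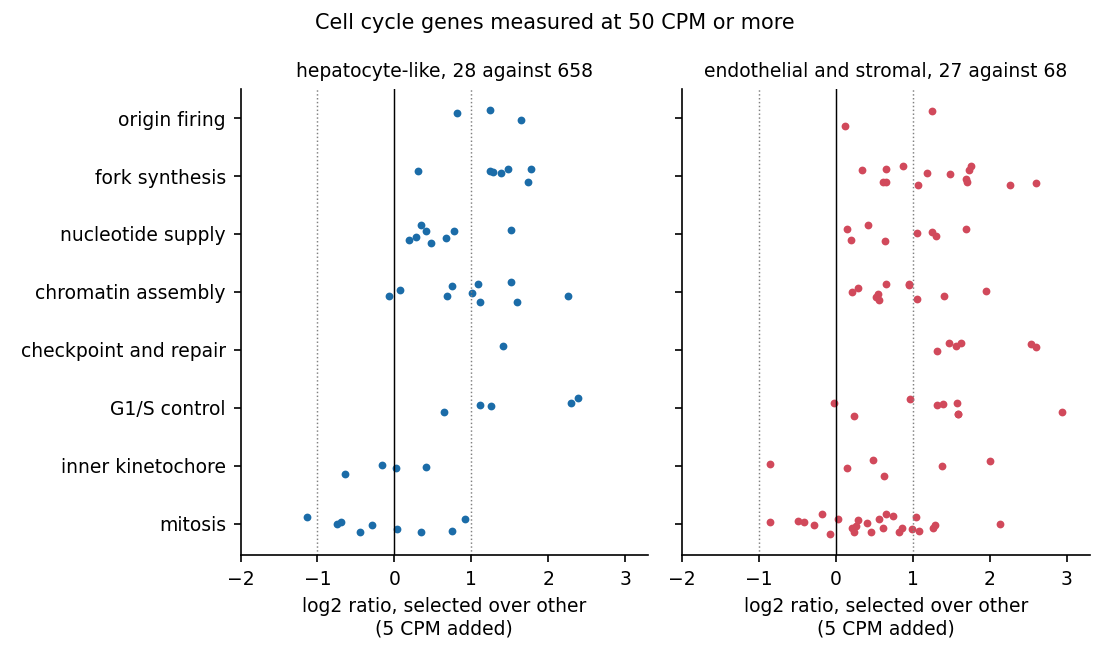
Log2 ratio of selected over other barcodes (x axis, 5 CPM added to both) for each cell cycle gene with at least 50 CPM in either group, 1 point a gene, by list. The left panel has the hepatocyte-like barcodes and the right panel the endothelial and stromal cluster. Dotted lines mark 2-fold. Genes could enter through the selected barcodes alone, which favours points to the right, as did 2 of 9 mitosis genes on the left and 6 of 25 on the right. Of these 9 and 25, 0 and 5 are 2-fold higher, where 2.59% and 7.37% of all genes are.

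The cluster of origin mattered for these values. Held-out genes stood at 5602 CPM in the 8 S-phase barcodes of cluster 1 against 3188 in its others, a ratio of 1.76 (1.62 to 1.90), and at 6721 against 4463 in the 12 of cluster 4, a ratio of 1.51 (1.38 to 1.65). The 4 S-phase barcodes of cluster 3 did not differ from the 239 others there, at 3361 against 3384 CPM, a ratio of 0.993 (0.776 to 1.25). The 2 of cluster 5 and the 3 of cluster 6, which include the Ifng barcode, had ratios of 1.64 (1.23 to 2.16) and 2.03 (1.82 to 2.26). Of the 391 held-out UMIs in the 3 of cluster 6, 293 lay in the Ifng barcode. Mitosis genes had ratios of 0.843 (0.687 to 1.02) in cluster 1, 0.521 (0.284 to 0.876) in cluster 3, 0.971 (0.810 to 1.16) in cluster 4 and 1.84 (1.12 to 2.85) in cluster 5. In cluster 6 they summed to 2427 against 1618 CPM, but 77 of the 98 UMIs in its S-phase barcodes lay in the Ifng barcode. Cluster 6 aside, the mitosis ratio was above 1 in cluster 5 alone, on 21 UMIs in 2 barcodes.

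On the CPM scale hepatocyte function genes differed modestly between the hepatocyte-like groups, and with TMM over all genes they were lower throughout. The 12 hepatocyte markers had a ratio of 0.824, the plasma proteins 0.843 and the acute phase genes 0.806, in which Saa1 and Saa2, the serum amyloid genes that share much of their sequence, stood at 5206 against 8364 and 4844 against 7338 CPM while fibrinogen Fga stood at 1306 against 1079. Cytochrome P450 genes had a ratio of 0.989 (0.954 to 1.03). Perivenous genes had a ratio of 1.12 (1.07 to 1.18), which turned to 0.939 with TMM over all genes, and periportal genes one of 0.870 (0.851 to 0.889). With TMM over all genes, hepatocyte markers had a ratio of 0.689, plasma proteins of 0.705 and acute phase genes of 0.673. The periportal ratio was then 0.727 and that of P450 genes 0.827. Within the periportal list Sds stood at 117 against 273 CPM, whereas Arg1, Cps1 and Ass1 of the urea cycle had ratios of 1.19, 1.12 and 1.10. Zonal genes therefore did not set these barcodes apart by 2-fold, with Sds as the exception.

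Genes of cholesterol synthesis were modestly higher, at 3056 CPM against 2429, a ratio of 1.26 (1.17 to 1.35; 1.05 with TMM over all genes), though none of the 14 measured was past 2-fold. Hmgcs1, which commits acetyl units to the pathway, stood at 373 against 234 and Pmvk at 181 against 98.4. Of the p53 targets Aen, a nuclease, stood at 79.0 CPM against 30.1 and passed 50 CPM through the S-phase barcodes alone. The list stood at 531 against 405, a ratio of 1.31 (1.10 to 1.56; 1.10 with TMM over all genes). Within clusters 1 and 4 its ratios were 1.22 (0.935 to 1.58) and 1.26 (0.917 to 1.71), with intervals that included 1. Transcripts kept in the nucleus were lower, with a ratio of 0.539 (0.450 to 0.641), and Malat1 stood at 395 CPM against 750. Among the lowest genes were also Trappc5 and Tbcb, at 22.6 and 26.4 CPM against 84.2 and 77.1, and Mup1, at 79.0 against 186.

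In the endothelial and stromal cluster the 27 S-phase barcodes were set against the 68 others. Of 3827 genes, 282 (7.37%) were 2-fold higher and 101 (2.64%) lower, or 157 and 202 with TMM over all genes (a shift of -0.19) and 208 and 158 with TMM over genes at 50 CPM or more (a shift of -0.14). Held-out S-phase genes stood at 10813 CPM against 6190, a ratio of 1.75 (1.65 to 1.85; 1.53 with TMM over all genes). Of the 26 held-out genes at 50 CPM or more in the other barcodes 10 were 2-fold higher and none lower, where 51 of 3040 genes (1.68%) were higher and 101 (3.32%) lower. The share ran from 0.606% to 1.72% with a median of 1.04% against 0.103% to 1.63% with a median of 0.538%. All 27 lay above the median of the others and 16 above their 90th percentile (0.913%).

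Skp2, which marks the p27 inhibitor for destruction at S-phase entry, had the highest ratio, at 68.4 CPM against 4.53 (log2 2.95), on 13 UMIs in 9 barcodes against 2 UMIs in 2. Tcf19, also among the highest in the hepatocyte-like barcodes, came next at 132 CPM against 15.9 (log2 2.71). Chek1, the kinase of the replication checkpoint, and Prim2, of the primase that starts each new strand, each stood at 52.6 CPM against 4.53, Brip1, a helicase of DNA repair, at 63.2 against 6.80, and Fen1 at 73.7 against 11.3. Like Skp2 and Tcf19, these genes passed the limit of 50 CPM through the S-phase barcodes alone and so had to be higher. The PCNA-associated factor gene 2810417H13Rik had the most UMIs of the 15 highest, at 305 CPM against 70.3 and in 21 of the 27. These low counts leave wide intervals: the ratio of Skp2 ran from 3.42 to 138 and that of Chek1 from 2.47 to 109.

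By role, checkpoint and repair genes had the largest ratio here too, 827 CPM against 261, or 3.17 (2.48 to 4.07). Of its 6 measured genes 5 passed the limit through the S-phase barcodes alone. Fork synthesis stood at 1669 against 628, a ratio of 2.66 (2.26 to 3.13). Of its 5 genes at 50 CPM in the other barcodes 4 were 2-fold higher, where 1.68% of all such genes were. Among the 4 were Pcna at 226 against 65.7 and Lig1 at 195 against 56.7. Origin firing had a ratio of 1.83 (1.36 to 2.45), nucleotide supply of 1.49 (1.28 to 1.74) and chromatin assembly of 1.56 (1.43 to 1.69). H2afz, which had not differed in the hepatocyte-like barcodes, stood at 2032 against 1394 CPM, a ratio of 1.46 (1.28 to 1.66).

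G1/S control had a ratio of 1.62 (1.38 to 1.91), against 2.45 in the hepatocyte-like barcodes. Ccnd1 stood at 384 CPM against 326, a ratio of 1.18 (0.876 to 1.57), where the hepatocyte-like ratio was 2.43 (1.97 to 2.96). The intervals do not overlap, and the difference between the ratios was not tested further. The S-phase barcodes of the 2 classes had similar levels, 384 and 414 CPM, and the other barcodes 326 and 171. Cdkn1a stood at 158 against 161. The rule genes also differed in their mix: Cdt1 stood at 117 CPM in the hepatocyte-like S-phase barcodes and 47.4 in those of this cluster, Dtl at 18.8 and 68.4 and Tyms at 67.8 and 153.

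The mitosis genes were higher in this cluster, at 3596 CPM against 2616, a ratio of 1.37 (1.25 to 1.51; 1.20 with TMM over all genes), and 22 of 27 barcodes lay above the median of the others but only 2 above their 90th percentile. Of the 19 genes at 50 CPM in the other barcodes 2 were 2-fold higher and none lower, where 51 of 3040 genes (1.68%) were higher and 101 (3.32%) lower. Aurkb, a kinase of chromosome segregation, stood at 126 CPM against 24.9 and Plk1 at 79.0 against 29.5. Both passed the limit through the S-phase barcodes alone and are not among the 19. Top2a stood at 458 against 229. Ccnb2 went the other way, at 52.6 against 99.7 CPM, and Cenpa at 116 against 213. Of the inner kinetochore genes, which had a ratio of 1.32 (1.09 to 1.60), Mis18a, a loader of the centromeric histone, stood at 79.0 against 15.9 CPM. It too passed the limit through the S-phase barcodes alone.

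**Figure D5:**
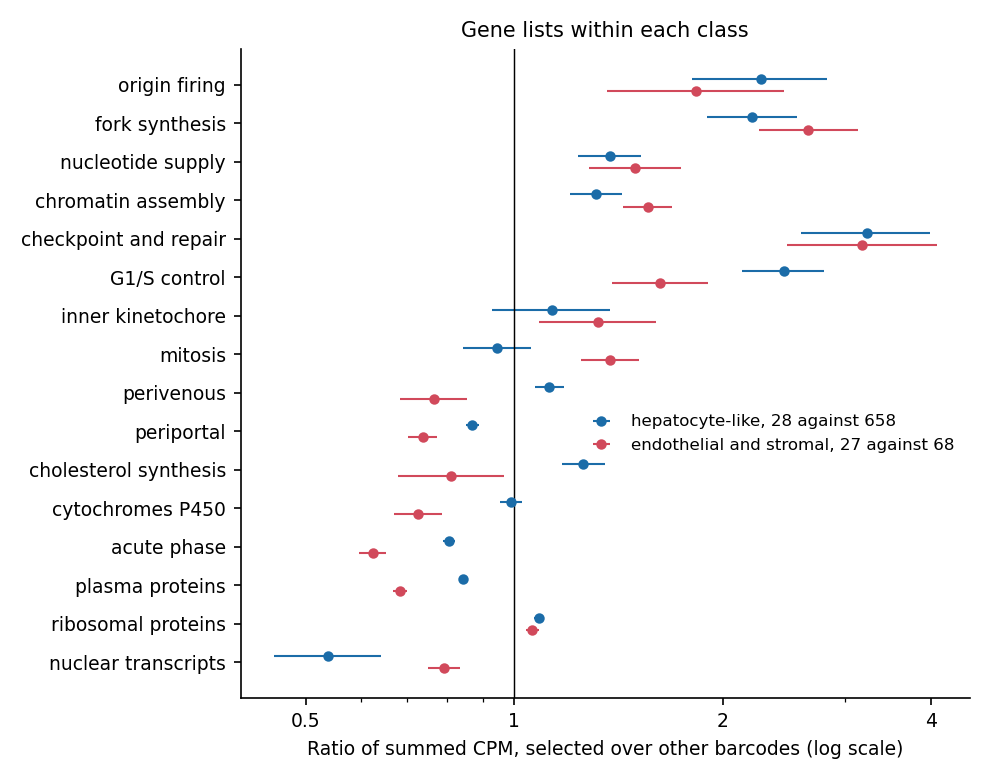
Ratio of summed CPM of selected over other barcodes (x axis, log scale) for 16 gene lists within each class, with exact 95% counting intervals as bars. S-phase lists lie right of 1 in both classes, mitosis lies at 0.945 in the hepatocyte-like barcodes and 1.37 in the endothelial and stromal cluster, and the plasma proteins lie at 0.843 and 0.684.

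Cell type markers also moved with the ranking inside the cluster. The endothelial markers stood at 6970 CPM against 4617, a ratio of 1.51 (1.41 to 1.62; 1.32 with TMM over all genes). Oit3, of the sinusoidal endothelium, was past 2-fold at 195 against 92.9. With either TMM scaling 0 of the 15 markers were 2-fold higher. The stromal markers stood at 7270 against 7636, a ratio of 0.952 (0.894 to 1.01), with Dcn at 4122 against 4120 and Lum at 195 against 349. The macrophage markers stood at 1221 against 635, a ratio of 1.92 (1.61 to 2.30), with Cd5l UMIs in 6 and Vsig4 UMIs in 5 of the 27. The hepatocyte markers had a ratio of 0.686. Among the lowest genes, Msln and Igfbp5 had 34 UMIs each in 1 and 2 of the other barcodes and none in the S-phase ones (allowing up to 15.8 CPM), and Slpi had 97 UMIs in 8, so they describe single barcodes. Tcf21, a stellate cell factor, stood at 21.1 CPM against 95.2 and was spread over 18 of the others.

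Split by marker, the 8 S-phase barcodes with endothelial markers alone had 13142 CPM of held-out S-phase genes and 4561 of mitosis genes, against 6873 and 3476 in the 12 others of that kind. The 4 with stromal markers alone had 12230 and 3384, against 4697 and 1944 in the 21 others of that kind. The 15 with both had 9439 and 3238, against 7133 and 2880 in 28. Held-out genes were thus higher in the S-phase barcodes of each kind, and the barcodes with markers of both types had the smallest gap.

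The 3 macrophage-like S-phase barcodes held 59, 71 and 101 macrophage marker UMIs. Their held-out share was 0.554%, 0.504% and 0.920% in the same order, against a median of 0.453% in the 20 other macrophage-like barcodes, and their summed mitosis level was 1643 CPM against 2432. The barcode with 0.504% also held 37 endothelial and 10 stromal UMIs, and the other two held 2 endothelial UMIs each.

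The last comparison asked how the 17 genes stood before hepatectomy. Over eligible barcodes they summed to 42.4 CPM (41.0 to 43.8) in the undamaged library and 502 CPM (485 to 520) in the PHx48h library, an 11.8-fold difference between the 2 libraries. With each barcode thinned to 1000 UMIs, at least 2 UMIs of the 17 genes were found in 75 of 55326 undamaged barcodes (0.136%) and in 81 of 821 PHx48h barcodes (9.87%, 7.91 to 12.1), while 6 undamaged barcodes were too shallow. Unthinned, the shares were 0.365% and 63.3%, at median depths of 1427 and 5684 UMIs. The mitosis genes stood at 59.6 and 1471 CPM and the held-out S-phase genes at 1048 and 4170. These are shares of deposited barcodes and not of cells, since the study kept a small part of the undamaged barcodes as hepatocytes.

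The same ranking in the undamaged library gave 60 barcodes of a similar share, at or above 0.145%, but on 2 to 15 UMIs with a median of 2. Of its 55332 eligible barcodes 121 reached the lowest share selected at 48 h. The 60 held more of the held-out genes than the remaining undamaged barcodes, 2816 against 1047 CPM, a ratio of 2.69 (2.37 to 3.04). Endothelial markers reached 10 UMIs in 2 of them, stromal markers in 1 and macrophage markers in 3, against 24, 20 and 8 of the 60 at 48 h. The median was 1331 UMIs a barcode against 7123, so the counts cannot be set side by side as shares of cells. By level, endothelial markers stood at 909 CPM in the 60 undamaged barcodes against 128 in the remaining undamaged ones. Stromal markers stood at 318 against 79.6 CPM and macrophage markers at 1742 against 165. A higher level of these lists in the highest-ranked barcodes was thus seen at 0 h too.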

How the data were processed

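Liver cells labelled as hepatocytes were counted by scRNA-Seq in 1 undamaged and 1 PHx48h library. Reads were processed by the authors in Cell Ranger (version not given in the sources used here; mm10 in the submitters' processing notes) and deposited raw UMI counts per gene and barcode, whole numbers without normalization. Their methods name the exclusion of barcodes rich in mitochondrial transcripts and of possible doublets, without thresholds, and 765 PHx48h barcodes lay above the limit of 30% used here.

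Counts were summed over barcodes and scaled to CPM of non-mitochondrial UMIs. With 1 library a group no test was made, and a gene was called at 2-fold, with 5 CPM added, among those with 50 CPM in either group. Exact 95% intervals cover counting error only. The 821 barcodes were clustered (Scanpy 1.11.5, Leiden, 2000 variable genes, 30 components, 15 neighbours, resolution 1.0) without 156 genes of the cell cycle lists. A non-hepatocyte name needed 3 markers detected in 20% of a cluster's barcodes at 3 times the level elsewhere, and a hepatocyte-like name 3 hepatocyte markers in 50% of its barcodes. Doublets were scored with Scrublet and kept. TMM factors came from edgeR 4.0.16 on the summed counts. Scripts were checked on simulated data.

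Genes named are the 15 highest and 15 lowest ratios, all rule genes and, in each list, the 3 genes with most UMIs, the 2 highest and the 1 lowest ratios. The rule allows genes with 10 UMIs in the selected barcodes or 50 in the others. Arg1 and Cps1, and the marker examples given with the lists, were named after their values were seen, as were the genes of the single Ifng barcode. The selected barcodes and the gene lists were chosen with earlier results of these data known. The naming rule, the marker limit of 10 UMIs and the division of the mixed cluster were set after seeing the data. Gene coordinates are from GENCODE M21 (GRCm38).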

Additional observations from a re-analysis of the deposited data

How the results depend on the processing

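No paired analysis was possible because each time point had 1 library. The reported values were a ratio of 2.10 for held-out S-phase genes, 1.59 for mitosis genes, 0.617 for hepatocyte, 7.12 for endothelial and 4.46 for stromal markers, 483 genes past 2-fold, and 29 hepatocyte-like and 27 endothelial and stromal barcodes. In that order of ratios and genes, the 30 highest barcodes gave 2.42, 1.87, 0.519, 7.71, 6.72 and 991 genes, and the 5 label genes alone 1.78, 1.37, 0.714, 4.14, 1.40 and 185 genes. The 120 highest gave 1.79, 0.756, 5.10, 3.04 and 244 genes for all but mitosis. The other 12 rule genes gave 1.75 for mitosis, 0.628 for hepatocyte, 7.97 for endothelial and 5.09 for stromal genes.

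Restricting the barcodes moved most values. Below 2% mt- UMIs the ratios were 1.63, 1.08, 0.751, 0 and 0.0375 with 269 genes, so both marker lists turned to the other side, on 0 and 1 UMIs. From 2% to 30% they were 2.30, 1.78, 0.563, 5.05 and 3.55. In hepatocyte-like clusters they were 1.77, 1.08, 0.760, 1.05 and 0.869 (stromal, turned) with 126 genes, and without barcodes of other markers, a choice made after seeing the data like the restriction to the endothelial and stromal cluster and its division, 1.64 for held-out and 0.945 for mitosis genes (turned) with 76 genes. In the endothelial and stromal cluster held-out genes gave 1.75 and mitosis genes 1.37. A limit of 20% mt- UMIs gave 0.651 for hepatocyte and 4.09 for stromal markers, a limit of 50% gave 0.699 for hepatocyte markers, and a mean over single-barcode CPM gave 8.06 for endothelial ones. A minimum of 20 CPM gave 1173 genes and one of 100 CPM 214. A minimum of 50 CPM in the other barcodes, chosen after seeing the data, gave 110 genes, with 85 higher in place of 458. In the hepatocyte-like barcodes the higher genes went from 66 to 8 and in the endothelial and stromal cluster from 282 to 51, since genes that passed through the selected barcodes alone drop out. The division of the mixed cluster left 13 barcodes mixed. Thinning to 500 UMIs gave 4.14% and 0.0416% of barcodes at 48 h and 0 h. With TMM over all genes the genes 2-fold higher went from 458 to 211 over all barcodes, from 66 to 21 in the hepatocyte-like ones and from 282 to 157 in the endothelial and stromal cluster, and those lower from 25 to 294, 10 to 50 and 101 to 202. The cause of these changes was not tested. The hepatocyte-like count stayed at 29 in every clustering run, while the count with both marker lists was 30 at resolution 0.5 and 22 at 1.5. Depth limits single genes to a few UMIs a barcode.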
